A study of Mus musculus with 21 samples.

Results

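Genes for the subunits of glutamate and GABA receptors were followed in the cerebral cortex of 21 mice with altered TDP-43. They were chosen by symbol alone, as the genes in the data used here whose names begin with Gria, Grid, Grik, Grin or Grm and a number, with Gabr and one of the letters a, b, d, e, g, q and r, or with Gabbr. The choice gave 29 of 12393 genes, measured by 37 probe sets, of which 28 encode receptor subunits. The remaining one, Grid2ip, encodes a scaffold protein that binds a delta receptor and is kept apart. Of the 29 genes, 16 belong to the glutamate side and 13 to the GABA side. Where a gene had more than 1 probe set, as for 6 genes, the one of highest mean stands for it.

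The mice were of mixed C57BL/6J and C3HeJ background, and the tissue was taken 2 weeks after doxycycline was withdrawn from the diet. TDP-43 is an RNA-binding protein of the nucleus, and dNLS is a form with a defective nuclear localization signal. The 5 dNLS bigenic mice (line NLS4) carried the TDP-43-dNLS transgene and tTA, the doxycycline-repressed activator that drives it. The 4 dNLS monogenic mice (NLS4) carried the TDP-43-dNLS transgene without tTA. The 4 WT bigenic mice (line WT12) carried wild-type TDP-43 and tTA. The 8 nontransgenic mice came from both lines, 6 from NLS4 and 2 from WT12. No group carried tTA alone, so tTA itself and the TDP-43 it drives cannot be told apart. Each transgene was represented by a single line. In mice of this kind tTA is made from the Camk2a promoter in forebrain neurons, whereas the tissue measured was whole cortex. In bulk tissue, fewer cells of a type and less RNA per cell cannot be told apart. The labels give no age.

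Glutamate excites and GABA inhibits most neurons of the cortex. AMPA, kainate and NMDA receptors are glutamate-gated cation channels assembled from subunits of their own family, and metabotropic receptors act through G proteins. GABA-A receptors are chloride channels of several subunits, in which a gamma subunit favours synaptic and a delta subunit extrasynaptic placement, and GABA-B receptors act through G proteins. TDP-43 binds many long neuronal transcripts, receptor messages among them.

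Most of the receptor genes that could be measured did not pass the test between genotypes, and the ones that did were few and mixed in direction. The kainate subunit gene Grik1 fell in dNLS bigenic cortex, 1.63-fold against nontransgenic and 1.58-fold against dNLS monogenic mice, and also in WT bigenic cortex, 1.46-fold against nontransgenic mice. The AMPA subunit gene Gria3 fell 2.25-fold in dNLS bigenic against dNLS monogenic mice. The GABA-A subunit gene Gabrg1 fell 1.38-fold and 1.46-fold against the 2 control groups on one of its probe sets. The extrasynaptic subunit gene Gabrd was 1.40-fold higher in dNLS than in WT bigenic mice, a call lost in 19 of 34 other settings. The AMPA subunit gene Gria4 and the GABA-A subunit gene Gabra6 rose in dNLS bigenic against nontransgenic mice, both from values close to the lowest the array table holds. Gabra6 did so on 1 of its 2 probe sets. A second probe set of Gria2, the AMPA subunit gene that sets calcium permeability, fell 1.44-fold while its first did not.

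Values are deposited log2 levels, for which the authors' normalization is not given in the sources used here. They have a common lowest value of 2.04. On all 21 arrays 9 of the 29 genes lay within 0.01 of it, so that no change can be seen in them: Grik3, Grin2b, Grin2d, Grin3b, Grid2ip, Gabre, Gabrg3, Gabrq and Gabrr1. Of the 20 others, 13 had a mean of 4 or more over the 21 arrays and 7 were dim, below that mean. Levels of different genes are not compared, because each probe set has its own brightness. Differences were tested in limma with the 4 groups and the labelled sex in 1 model. By label, males were 4 of 5 dNLS bigenic, 3 of 4 dNLS monogenic, 1 of 4 WT bigenic and 4 of 8 nontransgenic mice. The dNLS and WT bigenic groups thus differed in sex as well as in transgene and line. The sex term rests on few mice of the rarer sex in each transgenic group. Adjustment by Benjamini and Hochberg ran over all 12393 genes, 0.05 was the threshold, and p-values measure the spread between these mice.

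Against nontransgenic mice, dNLS bigenic mice had 4 of 29 receptor genes past the threshold (13.8%), where 22.3% of all genes passed. Of these 2 were higher and 2 lower, 6.9% each, against 10.8% and 11.5% of all genes. Of the 13 brighter members 2 passed (15.4%), against 34.2% of all genes of that brightness. Against dNLS monogenic mice 3 of 29 passed (10.3%), all lower, where 14.3% of all genes passed and 6.54% were lower. Between dNLS and WT bigenic mice 1 passed (3.45%), as higher, where 10.8% of all genes did and 6.24% were higher. Between WT bigenic and nontransgenic mice 1 passed (3.45%), as lower, where 2.23% of all genes did and 1.54% were lower. Among genes with a mean of 4 or more the shares in these last 3 comparisons were 23.1% of members against 22.1% of genes, 7.69% against 16.4%, and 7.69% against 3.45%. In either direction together, the members' shares thus lay below or near those of all genes, and each share of 7.69% is 1 gene. In dNLS monogenic against nontransgenic mice no member and no gene passed in limma, and an unadjusted p under 0.05 was held by 2 members (Gria1 and Gabra3) and by 1.58% of all genes. The median difference of the 29 members and of all genes was 0 in each of the 5 comparisons, but 9 members at the lowest value on every array hold the members' median there. Counting differences of more than 0.01 whether called or not, 8 members were positive and 9 negative in dNLS bigenic against nontransgenic mice, and 5 and 13 against dNLS monogenic mice. The dNLS monogenic minus nontransgenic differences were positive for 14 members and negative for 4. The comparisons share their control and dNLS bigenic mice, so calls in several of them are not independent of each other.

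**Figure D1:**
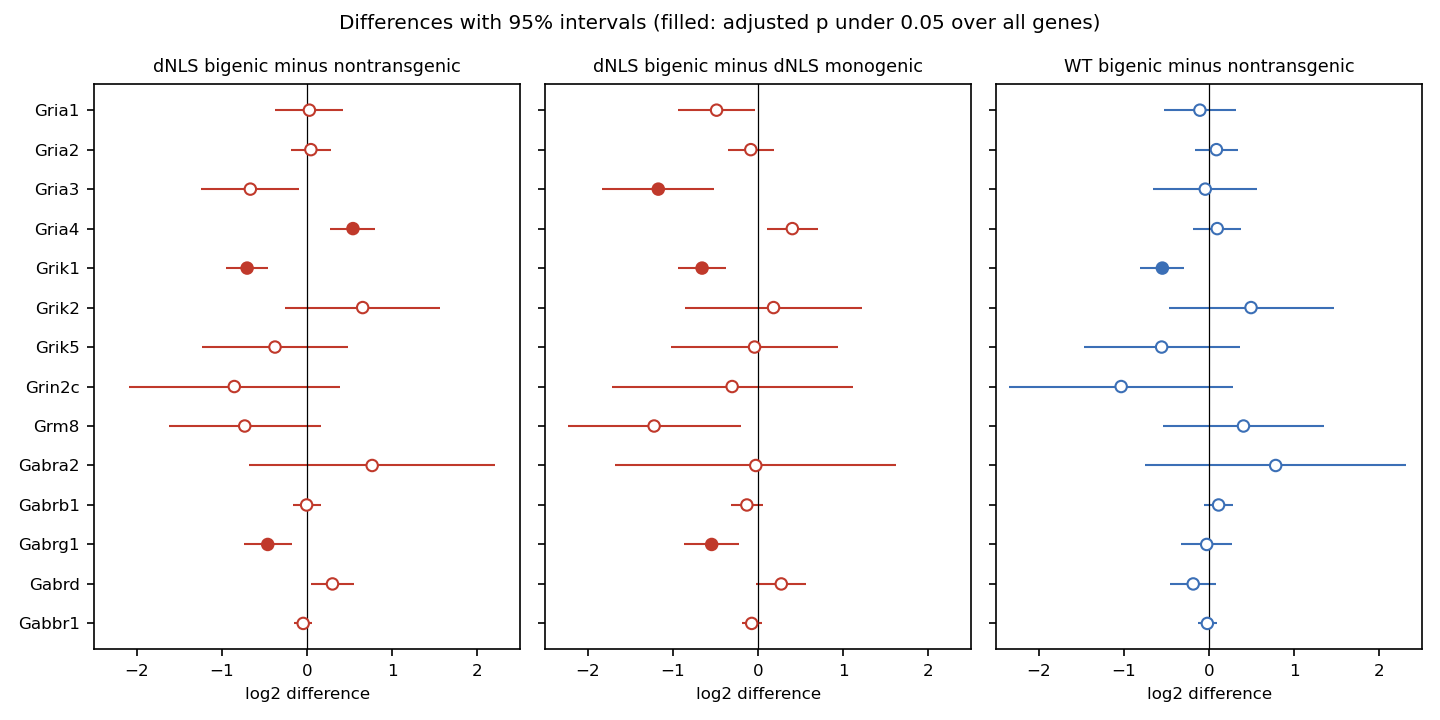
Log2 differences of the 13 brighter receptor genes and Gria4 in 3 comparisons, by gene in the order of receptor family, with 95% intervals of the limma model; filled points passed an adjusted p of 0.05 over all genes. Grik1 is filled in all 3 panels, and Grin2c, Gabra2, Grik2 and Grik5 have wide intervals that include 0.

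The nontransgenic group was uneven in 3' bias, although the labels give a minimum RNA integrity number of 7 for all groups. Whether the bias arose in the RNA or in its amplification was not tested. The 3' minus 5' log2 difference of the beta-actin control probe sets, which grows as transcripts lose their 5' ends, averaged 3.18 ± 2.31 (SD) for the 8 nontransgenic mice. For the other groups it was 1.75 ± 0.353 (dNLS bigenic), 1.39 ± 0.0286 (WT bigenic) and 2.00 ± 0.759 (dNLS monogenic). It was 4.70 on nontransgenic array 4 and 8.20 on nontransgenic array 6. For 12 of the 13 brighter receptor genes array 6 lay outside the range of the 6 nontransgenic arrays other than 4 and 6. It was below them for 10 genes and above them for Grik5 and Grin2c, and for 8 genes both arrays lay outside. Grik1 was the exception, with 10.02 and 10.09 on these arrays among others at 9.70 to 10.40. One nontransgenic mouse labelled male, number 1, had an Xist level of 11.97, in the range of the females. Tardbp, the mouse TDP-43 gene, was 10.90 ± 0.13 in dNLS bigenic and 11.11 ± 0.128 in nontransgenic mice. The log2 difference was −0.23 ± 0.07 (SE, adjusted p = 0.0212, limma). Against dNLS monogenic (−0.17, 0.165) and WT bigenic mice (−0.18, 0.218) it did not pass. WT bigenic against nontransgenic mice did not pass either (−0.05, 0.862). Whether its probe set reads the transgene was not tested.

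**Figure D2:**
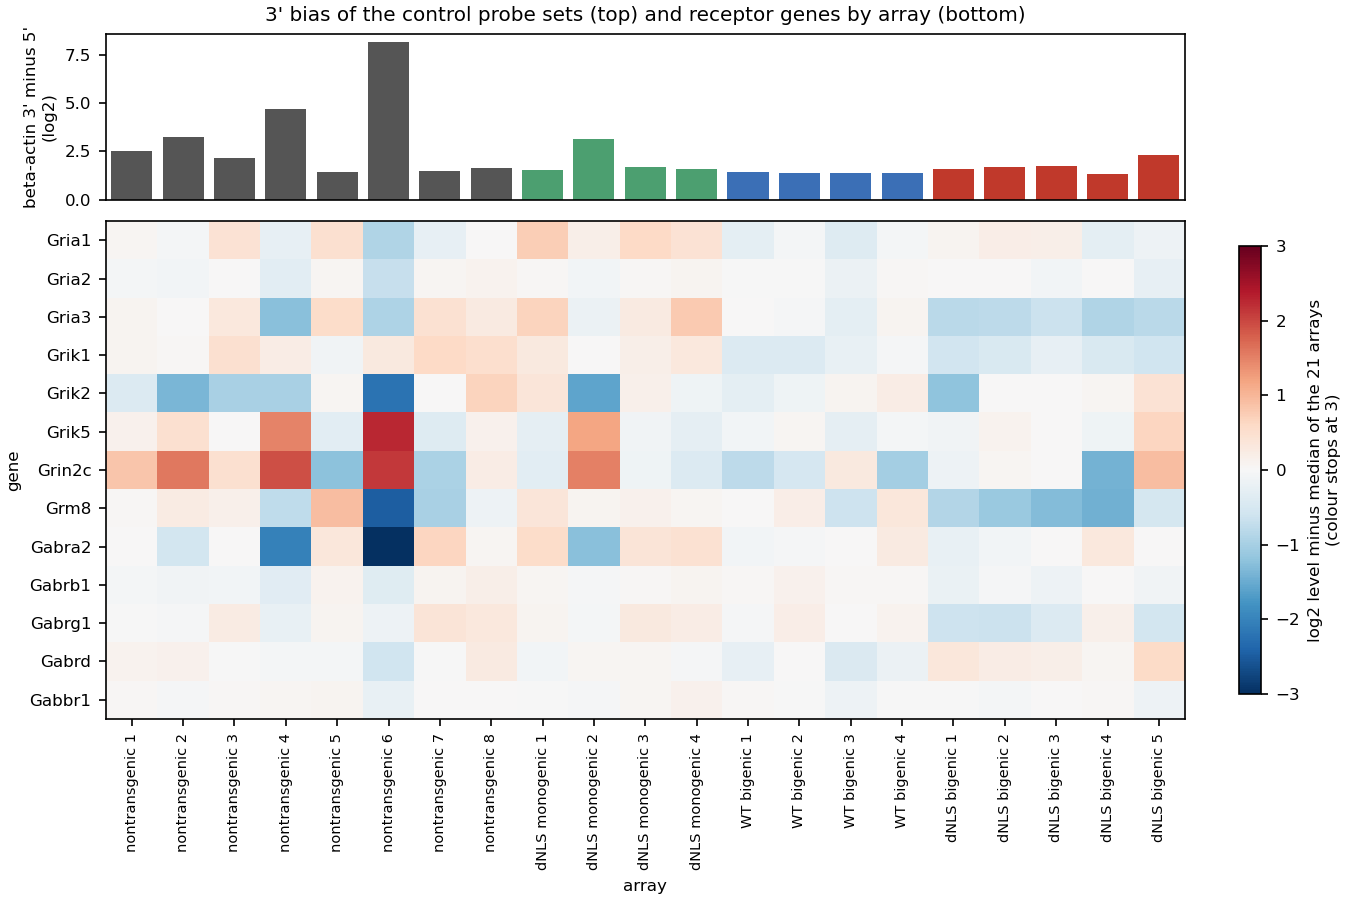
Top, beta-actin 3' minus 5' difference (log2) of each array as a bar coloured by group. Bottom, log2 level of each of the 13 brighter receptor genes minus its median over the 21 arrays, with colours stopping at 3 on either side. Nontransgenic 6, with a beta-actin difference of 8.20, is pale or blue for most genes and red for Grik5 and Grin2c, and nontransgenic 4 and dNLS monogenic 2 show fainter columns of the same kind.

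Of the 4 AMPA receptor genes, Gria1 to Gria4, 1 was higher and none lower in dNLS bigenic against nontransgenic mice, and 1 was lower against dNLS monogenic mice. Gria3 encodes the GluA3 subunit. Its log2 levels in the dNLS bigenic mice were 9.23, 9.26, 9.40, 9.15 and 9.23. In dNLS monogenic mice they were 10.73, 9.87, 10.33 and 10.83, and in WT bigenic mice 10.06, 10.02, 9.76 and 10.12. The dNLS bigenic mice lay below every mouse of both those groups and varied little among themselves. In nontransgenic mice the lowest level was 8.79, the median 10.23 and the highest 10.59, and only arrays 4 and 6, at 8.79 and 9.11, reached down to the dNLS bigenic mice. The log2 difference was −1.17 ± 0.31 (SE) against dNLS monogenic mice, with an adjusted p of 0.0157 in limma, lower in 5 of 5 mice. That call ended without dNLS monogenic mouse 1 (adjusted p = 0.0581) or 4 (0.0575). Against nontransgenic mice it was −0.67 ± 0.27 and did not pass (adjusted p = 0.0956). Without nontransgenic arrays 4 and 6 that difference was −1.02 ± 0.14 (2.02-fold lower, adjusted p = 6.53e-05, limma). It passed too without array 4 alone (−0.88, adjusted p = 0.0103) and without array 6 alone (−0.77, adjusted p = 0.0206). The comparison with WT bigenic mice gave −0.62 (95% interval −1.33 to 0.085, adjusted p = 0.32), and −0.63 with an adjusted p of 0.0142 when nontransgenic arrays 4 and 6 were left out of the shared model.

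Gria4 encodes GluA4, a subunit best known from interneurons. It was dim, and its levels in dNLS bigenic mice were 2.66, 3.48, 3.20, 2.71 and 3.50. Nontransgenic mice ran from 2.40 to 2.71 with a median of 2.64, dNLS monogenic mice from 2.58 to 2.91 and WT bigenic mice from 2.63 to 2.82. Thus 3 of the 5 dNLS bigenic mice stood above all others and 2 lay within the control range. The log2 difference from nontransgenic mice was 0.54 ± 0.13 (adjusted p = 0.00429, limma), and it passed in each of 34 other settings of the processing, with values from 0.42 to 0.64. Against dNLS monogenic mice it was 0.40 (adjusted p = 0.0738) and against WT bigenic mice 0.44 (adjusted p = 0.0799). This close to the lowest value the size of a change is compressed.

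Gria1 and Gria2 encode GluA1 and GluA2, the common pair of cortical pyramidal neurons. Gria1 was 11.85 ± 0.214 (SD, n = 5) in dNLS bigenic, 11.65 ± 0.169 in WT bigenic, 12.33 ± 0.241 in dNLS monogenic and 11.79 ± 0.438 in nontransgenic mice. It differed by 0.03 (95% interval −0.372 to 0.425) between dNLS bigenic and nontransgenic mice and by −0.49 ± 0.22 between dNLS bigenic and dNLS monogenic mice (adjusted p = 0.168). That second value was −0.48 with an adjusted p of 0.039 without nontransgenic arrays 4 and 6, and −0.48 with 0.0499 without array 6 alone. Gria2 on its brightest probe set was 13.03 ± 0.115 in dNLS bigenic and 12.98 ± 0.269 in nontransgenic mice, a difference of 0.04 (95% interval −0.19 to 0.279). The 8 nontransgenic values ran from 12.40 on array 6 to 13.19 and enclosed all 5 dNLS bigenic mice.

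The second probe set of Gria2 gave another picture. Its levels in dNLS bigenic mice were 11.06, 10.89, 10.99, 11.16 and 10.75, those in dNLS monogenic mice 11.39, 11.35, 11.44 and 11.65, and those in WT bigenic mice 11.30, 11.35, 11.01 and 11.34. Nontransgenic mice ran from 11.28 to 11.90. The dNLS bigenic mice lay below all nontransgenic and all dNLS monogenic mice, with arrays 4 and 6 inside the nontransgenic range, and overlapped WT bigenic mouse 3. In a fit of every probe set the difference was −0.52 ± 0.10 from nontransgenic mice (adjusted p = 0.00118, limma) and −0.48 ± 0.12 from dNLS monogenic mice (adjusted p = 0.00944). Within each array the second minus the first probe set was −2.06 ± 0.104 in dNLS bigenic mice, from −2.22 to −1.93. In WT bigenic mice it was −1.80 ± 0.0777, in dNLS monogenic mice −1.66 ± 0.0918 and in nontransgenic mice −1.46 ± 0.278. The value was lower in every dNLS bigenic mouse than in any other mouse, which shows unequal change of the probe sets and not which of them tracks the gene. Where the probe sets lie in the transcript was not analysed here.

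**Figure D3:**
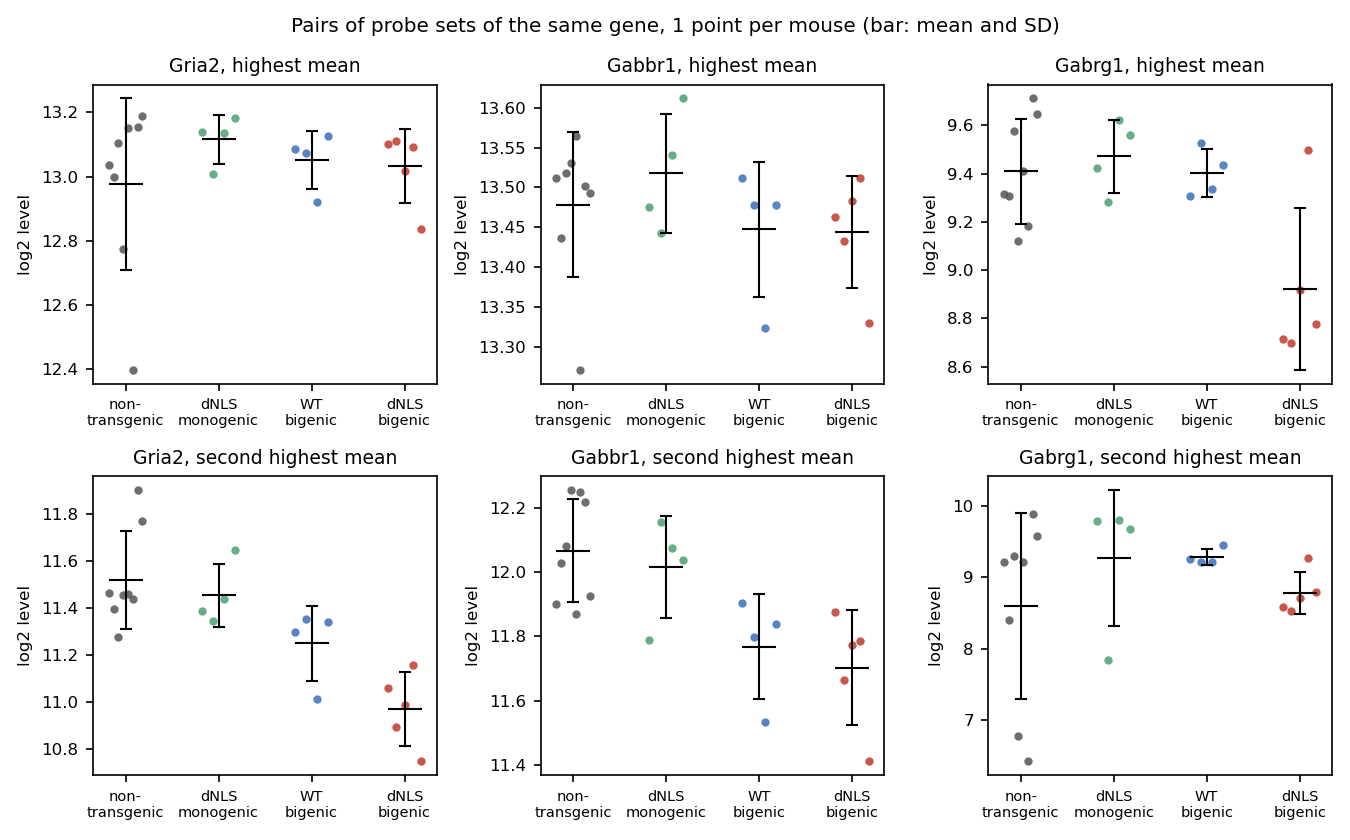
Log2 levels on the probe sets of highest (top) and second highest (bottom) mean for Gria2, Gabbr1 and Gabrg1, by group, with 1 point per mouse and mean and SD as bars; each panel has its own axis. For Gria2 and Gabbr1 the dNLS bigenic mice are lower on the bottom panel and level with the controls on the top one, and for Gabrg1 nontransgenic arrays 4 and 6, at 6.77 and 6.41, widen the bottom panel.

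Among the 4 kainate receptor genes, Grik1 passed the test and Grik2, Grik3 and Grik5 did not in any of the 5 comparisons. Grik1 encodes GluK1, a channel subunit that in cortex is typical of interneurons. Its levels in dNLS bigenic mice were 9.22, 9.36, 9.56, 9.34 and 9.20, and in WT bigenic mice 9.39, 9.41, 9.59 and 9.76. In dNLS monogenic mice they were 10.10, 9.81, 9.98 and 10.11, and in nontransgenic mice the lowest was 9.70, the median 10.06 and the highest 10.40. Both bigenic groups stood low and overlapped each other. The dNLS bigenic mice lay below every nontransgenic and every dNLS monogenic mouse, and 1 WT bigenic mouse, at 9.76, reached into the nontransgenic range. This was the only member with no overlap between dNLS bigenic and nontransgenic mice, a pattern held by 11.9% of all genes.

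The log2 difference of Grik1 was −0.70 ± 0.12 for dNLS bigenic against nontransgenic mice (adjusted p = 0.000246, limma) and −0.66 ± 0.13 against dNLS monogenic mice (adjusted p = 0.0022). Both passed in every other setting run, 35 and 34 of them, and the first was −0.71 without nontransgenic arrays 4 and 6. For WT bigenic against nontransgenic mice it was −0.55 ± 0.12 (adjusted p = 0.0314, limma), lower in 4 of 4 mice, and the call ended in 7 of 35 settings. Those included leaving out WT bigenic mouse 1 (adjusted p = 0.119), 2 (0.0941) or 3 (0.0923), or nontransgenic mouse 7 (0.0574). Set against the 2 nontransgenic mice of line WT12 it was −0.82 with an adjusted p of 0.101. The bigenic groups differed from each other by −0.16 (95% interval −0.455 to 0.144, adjusted p = 0.712), an interval that includes 0. The dNLS monogenic mice differed from nontransgenic mice by −0.05 (95% interval −0.306 to 0.213).

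Interneuron markers were counted in the same mice. Of 10 measured, 1 was higher and 3 lower in dNLS bigenic against nontransgenic mice (40%, against 34.2% of genes with a mean of 4 or more), and their summed level was 14.66 to 14.80 against 14.71 to 14.97 (log2 of the sum). Reln, the gene of the secreted protein reelin, fell by 0.51 (adjusted p = 0.00237, limma) and in WT bigenic mice by 0.72 (adjusted p = 0.0116), a call that ended with only the groups compared in the fit (0.138) or with control mice of the same line (0.225). Sst, the somatostatin gene, fell by 0.44 (adjusted p = 0.0157; −0.275 and 0.0883 without nontransgenic arrays 1, 4 and 6), while Npy, the neuropeptide Y gene, rose by 0.34 (adjusted p = 0.000384) and Pvalb, the parvalbumin gene, differed by 0.04. The part of these markers in the Grik1 and Gria4 values was not tested.

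Grik2 and Grik5 encode GluK2 and the high-affinity subunit GluK5, which can join in one channel. Grik2 was 6.52 ± 0.627 (SD, n = 5) in dNLS bigenic and 6.01 ± 0.916 (n = 8) in nontransgenic mice, a log2 difference of 0.65 (95% interval −0.26 to 1.56). Grik5 was 8.84 ± 0.315 and 9.21 ± 0.934, a difference of −0.38 (95% interval −1.24 to 0.484). Neither can be read closely, since the nontransgenic values ran from 4.45 (array 6) to 7.33 for Grik2 and from 8.35 to 11.01 (array 6) for Grik5.

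Of the 5 NMDA receptor genes Grin2b, Grin2d and Grin3b lay at the lowest value on all arrays, and Grin2a was at 2.08 on 20 arrays and 2.60 on dNLS monogenic array 2. Grin2c, whose GluN2C subunit gives receptors of weak magnesium block, was the measurable one. Its levels were 7.82, 8.02, 7.98, 6.56 and 8.90 in dNLS bigenic mice, and 7.19, 7.47, 8.28 and 6.96 in WT bigenic mice. Those of dNLS monogenic mice were 7.67, 9.48, 7.85 and 7.57, and nontransgenic mice ran from 6.74 through a median of 8.64 to 10.10. The groups overlapped throughout, and the highest nontransgenic values were those of arrays 6 and 4. The difference was −0.86 ± 0.59 in dNLS bigenic and −1.03 ± 0.62 in WT bigenic mice against nontransgenic mice (adjusted p = 0.38 and 0.395, limma). The delta receptor gene Grid1 was dim, at 2.13 to 2.80 over all arrays, and did not pass in any comparison.

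Grm8, the metabotropic glutamate receptor gene analysed here, encodes a presynaptic receptor that dampens release. Its levels were 5.13, 4.90, 4.71, 4.57 and 5.48 in dNLS bigenic mice. They were 6.38, 6.09, 6.15 and 6.07 in dNLS monogenic mice, and 6.01, 6.22, 5.40 and 6.36 in WT bigenic mice. The dNLS bigenic mice lay below all dNLS monogenic mice and overlapped 1 WT bigenic mouse. Nontransgenic mice ran from 3.55 on array 6 to 6.95 with a median of 5.95, and 3 of them lay as low as the dNLS bigenic mice. The difference from dNLS monogenic mice was −1.22 ± 0.48 and did not pass (adjusted p = 0.113, limma), nor did the −0.73 ± 0.42 from nontransgenic mice (adjusted p = 0.268). Without nontransgenic arrays 4 and 6 both passed, at −1.21 (adjusted p = 0.00968) and −1.09 (adjusted p = 0.0103). Leaving out array 6 alone gave −1.21 (0.0135) and −0.95 (0.0204).

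**Figure D4:**
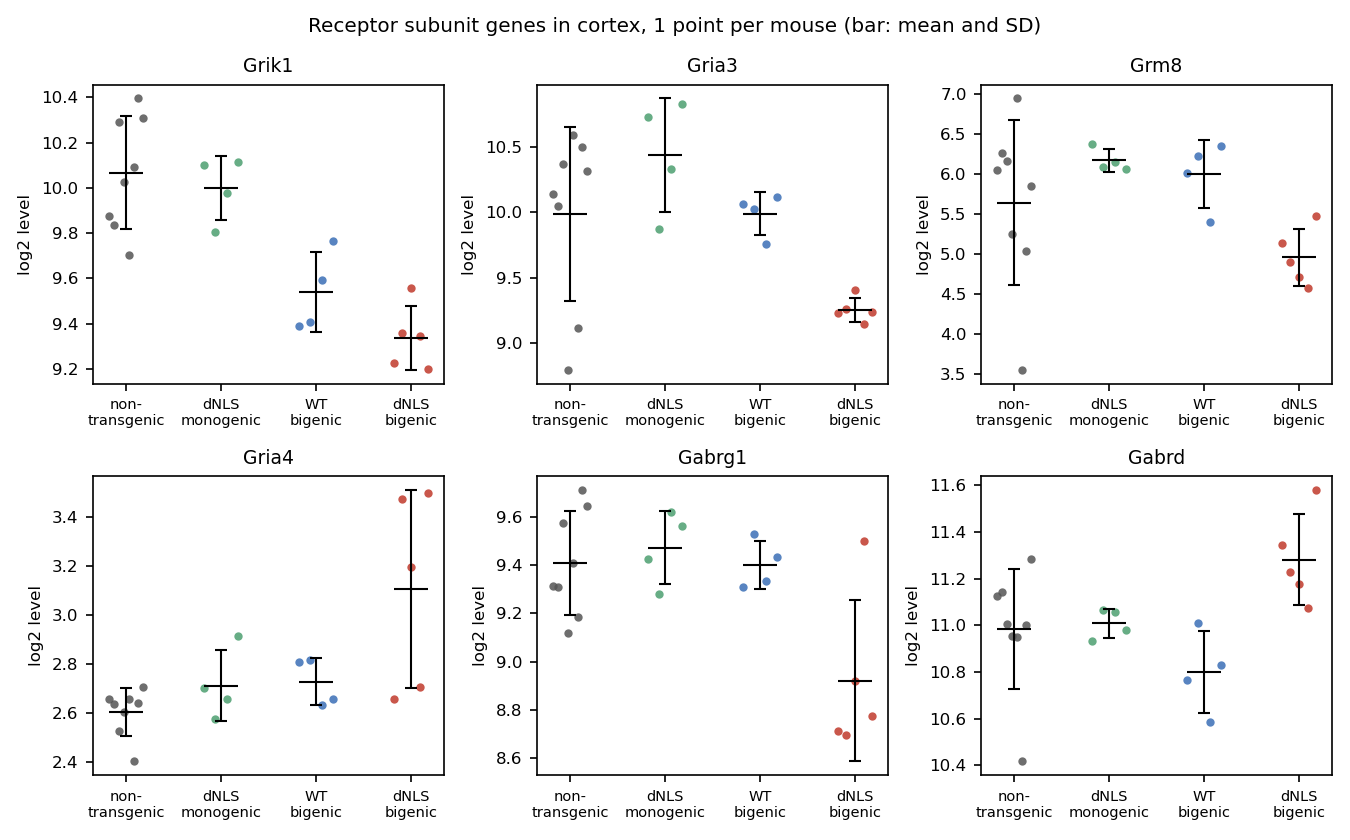
Log2 levels of 6 receptor genes by group, with 1 point per mouse and mean and SD as bars; each panel has its own axis. Grik1 is low in both bigenic groups, Gria3 and Grm8 are low in dNLS bigenic mice with 2 or 3 nontransgenic arrays as low, and in Gria4 and Gabrg1 the dNLS bigenic mice are spread widely, Gria4 from 2.66 to 3.50 and Gabrg1 from 8.70 to 9.50.

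On the GABA side, the 10 GABA-A alpha, beta, gamma, delta, epsilon and theta genes held every call. Gabrg1 encodes the gamma-1 subunit, less widespread in cortex than gamma-2. On its brightest probe set it was 8.72, 8.70, 8.92, 9.50 and 8.78 in dNLS bigenic mice. Nontransgenic mice ran from 9.12 through a median of 9.36 to 9.71, dNLS monogenic mice from 9.28 to 9.62 and WT bigenic mice from 9.31 to 9.53. Thus 4 of the 5 dNLS bigenic mice were below every other mouse, and number 4, at 9.50, was inside the control range. The log2 difference was −0.46 ± 0.13 from nontransgenic mice (adjusted p = 0.0174, limma) and −0.55 ± 0.15 from dNLS monogenic mice (adjusted p = 0.0207). It was −0.43 from WT bigenic mice and did not pass (adjusted p = 0.112). Without dNLS bigenic mouse 4, the mouse inside the control range, it was −0.57 (adjusted p = 0.00603). Leaving out that mouse favours a difference, so the second value is no support for one.

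The call rests on few mice and on the probe set. Against nontransgenic mice it ended without dNLS bigenic mouse 2 (adjusted p = 0.0507) or 5 (0.0919). Against dNLS monogenic mice it ended without dNLS bigenic mouse 1 (0.0549), 2 (0.0546) or 5 (0.0632), or dNLS monogenic mouse 3 (0.0776) or 4 (0.0568). The second probe set of Gabrg1 was 8.78 ± 0.298 in dNLS bigenic and 8.60 ± 1.31 in nontransgenic mice, with arrays 4 and 6 at 6.77 and 6.41. Its difference from nontransgenic mice was 0.26 ± 0.56 (adjusted p = 0.98, limma, every probe set). It was −0.49 ± 0.63 from dNLS monogenic and −0.36 ± 0.68 from WT bigenic mice. Those 2 values had the direction of the first probe set but did not pass. With the median of both probe sets the difference was −0.10 from nontransgenic mice (adjusted p = 1) and −0.52 from dNLS monogenic mice (0.535). Astrocyte markers, as a set of another cell type, had 1 of 7 lower and none higher (14.3%, against 34.2% of genes with a mean of 4 or more), with summed levels of 14.67 to 14.81 in dNLS bigenic and 14.70 to 15 in nontransgenic mice; their part was not tested.

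Gabrd encodes the delta subunit of extrasynaptic receptors that carry tonic inhibition. It was 11.34, 11.23, 11.18, 11.07 and 11.58 in dNLS bigenic mice, and 10.76, 11.01, 10.59 and 10.83 in WT bigenic mice. In dNLS monogenic mice it ran from 10.93 to 11.06, and in nontransgenic mice from 10.42 on array 6 through a median of 11 to 11.28. Every dNLS bigenic mouse was above every WT bigenic and every dNLS monogenic mouse, by a small margin in the second case. The dNLS minus WT bigenic difference was 0.48 ± 0.15 (adjusted p = 0.0464, limma), higher in 5 of 5 mice. It passed in 15 of 34 other settings, with adjusted p from 0.00205 to 0.225. Leaving out dNLS bigenic mouse 1, 2, 3 or 5, or WT bigenic mouse 1, 3 or 4, ended the call, and without dNLS bigenic mouse 5 it was 0.35 (adjusted p = 0.225). In the shared model it also ended without any 1 of the dNLS monogenic mice or without nontransgenic mouse 3, 4, 5, 7 or 8. The difference was 0.30 ± 0.12 from nontransgenic mice (adjusted p = 0.0957) and 0.27 ± 0.14 from dNLS monogenic mice (adjusted p = 0.26), and −0.19 ± 0.13 between WT bigenic and nontransgenic mice (adjusted p = 0.472).

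Gabra6, a subunit gene typical of cerebellar granule cells, was at the lowest value in all 16 mice other than the dNLS bigenic ones. In dNLS bigenic mice it was 2.20, 2.04, 2.10, 2.04 and 2.19, so that 3 of 5 stood slightly above that value. The difference of 0.08 ± 0.02 passed against nontransgenic mice (adjusted p = 0.0139, limma) and is too close to the lowest value to give a size. That call ended without dNLS bigenic mouse 5 (adjusted p = 0.105) and with arrays centred on their median (0.18). It also ended with array weights (0.0526) and with only the groups compared in the fit (0.0688). The second probe set of Gabra6 lay at the lowest value in every group, so the call rests on 1 probe set. The cerebellar markers Cbln3 and Barhl1 were at the lowest value on all arrays, and of 6 cerebellar markers 1 was higher and none lower. That one was Pcp2, a Purkinje cell gene, 1.54-fold higher (adjusted p = 7.03e-05, limma), and with the median of its probe sets the difference was −0.007 (adjusted p = 0.977).

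Gabra2, Gabrb1 and Gabbr1 did not pass in any of the 5 comparisons. Gabra2, the alpha-2 subunit gene, was 7.50 ± 0.2 in dNLS bigenic, 7.54 ± 0.157 in WT bigenic, 7.53 ± 0.858 in dNLS monogenic and 6.75 ± 1.7 in nontransgenic mice. Its nontransgenic mean was pulled down by arrays 4 and 6, at 5.47 and 3.06, where the other 6 ran from 6.94 to 8.14. Gabrb1, the beta-1 subunit gene, was 11.77 ± 0.0838 in dNLS bigenic and 11.93 ± 0.0464 in WT bigenic mice, whose ranges did not touch (11.67 to 11.87 and 11.90 to 12), although the difference of −0.12 had an adjusted p of 0.631. The dim genes Gabra3 and Gabrb2 ranged from 2.04 to 2.85 and from 2.04 to 2.38, Gabrr2 did not exceed 2.05, and none passed.

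Gabbr1 encodes the GABA-B subunit that binds GABA. On its brightest probe set it was 13.44 ± 0.0699 in dNLS bigenic and 13.48 ± 0.0913 in nontransgenic mice, a difference of −0.05 (95% interval −0.149 to 0.057). Its second probe set was 11.88, 11.67, 11.77, 11.79 and 11.41 in dNLS bigenic mice and ran from 11.87 to 12.26 in nontransgenic mice. The dNLS bigenic mice lay at or below the bottom of the nontransgenic range, with an overlap of 1 mouse. That difference was −0.39 ± 0.09 (adjusted p = 0.00606, limma, every probe set). It was −0.32 from dNLS monogenic mice (adjusted p = 0.0674) and, in WT bigenic against nontransgenic mice, −0.27 (adjusted p = 0.163). Of the other probe sets of Gabbr1, one leaned the other way, at 9.69 ± 0.213 in dNLS bigenic, 10.05 ± 0.102 in WT bigenic and 9.12 ± 0.952 in nontransgenic mice. Its differences of 0.64 ± 0.39 and 0.87 ± 0.42 from nontransgenic mice did not pass (adjusted p = 0.325 and 0.295), and nontransgenic arrays 6 and 4 were the lowest, at 7.51 and 8.02. The last lay at the lowest value on all arrays.

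Counts of separated groups gave the same sparse picture. Between dNLS bigenic and dNLS monogenic mice 4 members did not overlap, Grik1, Gria3 and Grm8 lower and Gabrd higher, which is 13.8% of members against 18.6% of all genes. Between dNLS and WT bigenic mice 3 did not overlap, Gria3 and Gabrb1 lower and Gabrd higher, 10.3% against 20.9% of all genes. Between WT bigenic and nontransgenic mice, and between dNLS monogenic and nontransgenic mice, no member was separated, against 4.54% and 0.0565% of all genes.

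Genes that make, load, anchor or carry the transmitters and their receptors were counted in lists drawn from textbook knowledge. The lists were chosen with earlier results of these data known, so their shares are descriptive and test no pathway. Of 34 measured glutamate pathway genes 3 were higher and 11 lower in dNLS bigenic against nontransgenic mice (41.2%, against 22.3% of all genes). Of the 30 with a mean of 4 or more 46.7% passed, against 34.2% of all genes of that brightness. Slc17a6, which encodes a transporter that loads glutamate into vesicles, was 9.21 ± 0.204 against 10.76 ± 0.226, 2.90-fold lower (adjusted p = 3.41e-07, limma). Nptx2, whose secreted pentraxin gathers AMPA receptors, was 3.66-fold lower (adjusted p = 0.00111), the scaffold gene Homer2 1.96-fold (0.00292) and the synaptic adhesion gene Lrrtm1 1.66-fold (7.45e-05). With the median of a gene's probe sets Nptx2 was 1.98-fold lower (adjusted p = 0.00403), and Lrrtm1 was 1.31-fold lower and no longer passed (0.107). Cacng2, the gene of the AMPA receptor auxiliary subunit stargazin, rose 1.67-fold (adjusted p = 0.00332). The scaffold genes Dlgap4 and Grip1 rose 1.30-fold (0.0323) and 1.29-fold (0.00464). With array weights the Grip1 difference was 1.16-fold and did not pass (0.0605). The Dlgap4 call ended without nontransgenic array 4 (adjusted p = 0.0599), or without dNLS bigenic mouse 1 (0.0626), 2 (0.07), 3 (0.0536) or 5 (0.188). It also ended with nontransgenic mice of the same line (0.056) and with only the groups compared in the fit (0.07). Without nontransgenic arrays 4 and 6 (0.0711), or 1, 4 and 6 (0.0735), Dlgap4 did not pass either.

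In WT bigenic against nontransgenic mice 5 of the 34 were lower and none higher (14.7%, against 2.23% of all genes). Of the 30 with a mean of 4 or more 16.7% passed, against 3.45% of all genes of that brightness. Slc17a6 was 1.93-fold lower there (adjusted p = 0.0106, limma) and Neto1, the gene of a kainate and NMDA receptor auxiliary protein, 1.52-fold (0.0167). Lrrtm1 and Dlg1, a scaffold gene, were 1.42-fold (0.0314) and 1.31-fold (0.0307) lower. None of the 5 calls held when only those 2 groups entered the fit, nor against the 2 nontransgenic mice of the same line, WT12, where Slc17a6 differed by −0.746 (adjusted p = 0.216) and Lrrtm1 by −0.292 (0.665). With the median of probe sets Slc17a6 was −0.652 (adjusted p = 0.266), Neto1 −0.344 (0.136) and Lrrtm1 0.017 (1). Without WT bigenic mouse 1 or 3 the calls of Neto1, Lrrtm1 and Dlg1 ended, and without mouse 2 those of Lrrtm1 and Dlg1, as did that of Dlg1 without nontransgenic mouse 7.

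Of 19 measured GABA pathway genes 5 were higher and 2 lower in dNLS bigenic against nontransgenic mice (36.8%, against 22.3% of all genes). Of the 18 with a mean of 4 or more 38.9% passed, against 34.2% of all genes of that brightness. Kif5a, the gene of a kinesin motor of neurons, was 9.93 ± 0.228 against 8.18 ± 0.512, 3.57-fold higher (adjusted p = 2.42e-05, limma). Hap1, whose protein links GABA-A receptors to that motor, was 7.33 ± 0.789 against 9.62 ± 0.538, 4.83-fold lower (adjusted p = 0.000123). With the median of its probe sets the log2 difference of Kif5a was 0.918 instead of 1.836 (1.89-fold, adjusted p = 3.9e-05). For Kif5a and Bsn the single probe sets behind the median are not given here, so a smaller fold need not mean a smaller change. For both genes the dNLS bigenic mice were separated from all nontransgenic mice. Bsn, the gene of the presynaptic scaffold bassoon, rose 2.17-fold (5.81e-05), or 1.47-fold (0.00015) with the median of its probe sets, and Gabarapl2 and Nlgn2, for a receptor-associated protein and the adhesion protein of inhibitory synapses, rose 1.34-fold (0.00205) and 1.23-fold (0.0091). The Nlgn2 call ended with only the groups compared in the fit (0.0625), and its difference was 1.14-fold (0.000112) with the beta-actin covariate. Gad1, the gene of a GABA-making enzyme, fell 1.15-fold (0.0258), a call that ended without dNLS bigenic mouse 2 (0.0625), 3 (0.0578) or 5 (0.0886). No GABA pathway gene passed in WT bigenic against nontransgenic mice in limma.

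Against dNLS monogenic mice the glutamate pathway list had 1 gene higher and 6 lower (20.6%, against 14.3% of all genes), and the GABA pathway list 2 higher and 1 lower (15.8%). Of their genes with a mean of 4 or more 23.3% and 16.7% passed, where 22.1% of all genes of that brightness did, so neither list stood far from its background. Slc17a6 was 2.51-fold lower (adjusted p = 1.21e-05, limma), Lrrtm1 1.54-fold (0.0017), Dlg1 1.39-fold (0.00169) and Nptx1, for another secreted pentraxin, 1.35-fold (0.000899). Grip1 was 1.29-fold higher (0.0156), a call that ended without dNLS bigenic mouse 5 (0.052) or dNLS monogenic mouse 4 (0.0719), and the Nptx1 call ended with the median of its probe sets (0.0728). Of the GABA side, Kif5a was 3.59-fold (0.000146) and Bsn 1.82-fold (0.00292) higher, or 1.89-fold and 1.35-fold with the median of probe sets, and Hap1 was 4.53-fold lower (0.000951).

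Between dNLS and WT bigenic mice 3 of 34 glutamate pathway genes (8.82%) and 2 of 19 GABA pathway genes (10.5%) passed, against 10.8% of all genes. Of their genes with a mean of 4 or more 10% and 11.1% passed, where 16.4% of all genes of that brightness did. Grip1 was 1.46-fold higher (adjusted p = 0.00279, limma), a call that ended with the median of its probe sets (0.0613). Slc17a6 differed by −0.59 on the log2 scale (0.0257), a call that ended without dNLS bigenic mouse 1 (0.0559) or 3 (0.0516), or WT bigenic mouse 1 (0.104), 2 (0.0543) or 4 (0.0734). The Slc17a6 call also ended with the median of its probe sets (0.244) and with only the groups compared in the fit (0.0919). Nptx1 was 1.26-fold lower (0.0159), and that call ended without dNLS bigenic mouse 5 (0.0637) or without the sex term (1.16-fold, 0.184). With the median of its probe sets the log2 difference of Nptx1 was −0.272 and did not pass (0.589). Its call ended too with arrays centred on their median (0.0847) and with only the groups compared (0.0555). Kif5a was 2.54-fold (0.0058) and Bsn 1.79-fold (0.00871) higher, or 1.59-fold and 1.34-fold with the median of probe sets.

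Pan-neuronal markers, for the neurons as a whole, had 3 of 10 higher and 1 lower in dNLS bigenic against nontransgenic mice (40%, against 34.2% of genes with a mean of 4 or more), with summed levels of 15.94 to 16.08 against 15.78 to 16.13. Excitatory neuron markers had 1 of 6 lower (16.7%), with summed levels of 13.45 to 13.94 against 13.79 to 14.20. Some markers of neighbouring regions passed too, where 22.3% of all genes and 34.2% of genes with a mean of 4 or more did. Of 6 hippocampal markers 3 were lower and none higher, with summed levels of 12.84 to 13.11 against 13.56 to 13.83, and the defining marker Prox1 was at the lowest value on all arrays. Those lower were Wfs1 (3.00-fold, adjusted p = 1.06e-07, limma), Neurod1 (2.31-fold, 5.39e-07) and Calb1 (1.85-fold, 1.1e-08), and neurons of the cortex also express Wfs1 and Calb1. In each of these 3 genes the dNLS bigenic mice were separated from all nontransgenic mice. Of 4 thalamic markers 1 was higher and none lower, with summed levels of 10.71 to 11.10 against 9.55 to 10.46. It was Rora, a gene that cortical neurons express as well, at 1.80-fold (8.14e-05) and 2.44-fold (0.00398) with the median of its probe sets. Rora, at 10.73 against 9.88, weighs most in the summed level. Tcf7l2 differed by −0.24 and did not pass (adjusted p = 0.743, limma), and Lef1 was at the lowest value on all arrays. Of 4 striatal markers 1 was lower, with summed levels of 8.92 to 12.50 against 11.38 to 13.57. It was Penk, the proenkephalin gene, at 3.06-fold (0.0302), a call that ended without dNLS bigenic mouse 1 (0.0778), 2 (0.0616) or 3 (0.069) or nontransgenic mouse 1 (0.0591), and without nontransgenic arrays 4 and 6 together (0.052). The part of any of these sets in the receptor and pathway values was not tested.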

How the data were processed

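Cortex RNA of 21 mice was labelled after poly(T)-primed linear amplification and hybridised to 1 Affymetrix MOE430A 2.0 array per mouse, per the labels' protocols. The authors deposited log2 values of 22690 probe sets. The log base was read from their range of 2.04 to 15.08. Partek is named in the submitters' processing notes without version or role, and the sources used here do not state the background correction or normalization.

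Leaving out 64 controls, 20380 probe sets had 1 symbol, 691 had several and 1555 had none, and only those with 1 were used. The probe set of highest mean stood for each of 12393 genes. All 29 members matched the RefSeq table of GRCm38.p6 by Entrez identifier. A model with 4 groups and labelled sex was run on all arrays with limma 3.58.1 (R 4.3.3, lmFit, eBayes with trend), and p-values were adjusted by Benjamini-Hochberg over all genes. The fit was tested on simulated data. The number of arrays limits the precision. Replicates were numbered in accession order, and array pairs correlated at 0.9575 to 0.9989.

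All members are accounted for by family. Values by group were given for members past the threshold in any comparison and for the brightest of each family, and by mouse for the smallest adjusted p. Of each pathway list, the 4 largest called changes in each direction and comparison were named, beyond which markers were named after their values were seen. Members and lists were chosen with earlier results of these data known. Alternatives were other sex terms, normalizations, probe set rules, filters, weights, control sets, a beta-actin 3' bias covariate and leaving out each mouse.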

Additional observations from a re-analysis of the deposited data

Results flagged for a closer look

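Within the groups of 4 to 8 mice, 7 of 57 gene and group combinations had 1 mouse apart from the others by Dixon's ratio, where chance gives about 1 in 20. Genes read on the same array are not independent, so that rate is only a rough guide. Nontransgenic 6, the array with the largest beta-actin 3' bias, was low for Gabbr1 at 13.27 and for Gabrd at 10.42. The array of dNLS monogenic mouse 2, whose beta-actin difference of 3.13 was the highest of its group, stood apart for Gabra2 at 6.248, Grik5 at 9.931 and Grin2c at 9.484. The remaining 2 were dNLS bigenic mouse 4 for Gabrg1, at 9.50, and dNLS bigenic mouse 1 for Grik2, at 5.446. The part of 3' bias in these values was not tested.

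Gabrd differed between the bigenic groups by the direct test, 0.485 higher on the log2 scale in dNLS than in WT bigenic mice (adjusted p = 0.0464, limma). The call was lost in 19 of 34 other settings, and dNLS bigenic mice did not pass for Gabrd against either control group.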

How the results depend on the processing

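Up to 35 alternatives were run for each comparison. Grik1 against nontransgenic and dNLS monogenic mice, and Gria4 against nontransgenic mice, passed in all of them. Over 49 called gene results, pathway genes and named markers included, 25 passed in every alternative. In at least 1 alternative 23 lost the call with the sign kept, and 3 changed sign in 1. The 3 did not pass where the sign changed, and the counts of 23 and 3 overlap. With the median of a gene's probe sets Gad1 was 0.76 higher in dNLS bigenic than in nontransgenic mice (adjusted p = 0.431), Lrrtm1 differed by 0.017 between WT bigenic and nontransgenic mice (adjusted p = 1), and Pcp2 by −0.007 between dNLS bigenic and nontransgenic mice (adjusted p = 0.977). The causes were not tested.

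The number of receptor genes called for dNLS bigenic minus nontransgenic mice was 4, and it was 2 with arrays centred on their median, 2 with only the groups compared in the fit and 8 with the beta-actin covariate. For dNLS bigenic minus dNLS monogenic mice it was 3, and it was 9 with array weights, 8 with the beta-actin covariate, 5 without nontransgenic arrays 4 and 6 and 5 without 1, 4 and 6. For dNLS minus WT bigenic mice it was 1. It was 5 with array weights, 4 without nontransgenic arrays 4 and 6, and 2 each with the beta-actin covariate, no sex term, quantile normalization, only the groups compared, or nontransgenic arrays 1, 4 and 6 left out. It was 0 with centred arrays, with every probe set and with the median of probe sets. For WT bigenic minus nontransgenic mice it was 1, and 0 with centred arrays, only the groups compared or nontransgenic mice of the same line. Leaving out 1 mouse at a time gave 2 to 6, 1 to 5, 0 to 4 and 0 to 1 calls in these comparisons. The dNLS monogenic minus nontransgenic comparison had 0 calls throughout. The removal of arrays 1, 4 and 6 together was chosen after seeing the data. The share of all genes called in each of these settings is not given here. These counts therefore show how the calls depend on the setting, and not whether receptor genes moved apart from other genes.

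Centring moved the median of all genes by at most 0.05. No paired analysis was possible because the replicate numbers come from accession order and mark no shared animal or litter. Genes near the lowest value, 16 of 29 with a mean below 4, show at most compressed changes.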

Other observations

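For Gabra2, Gria2 and Grik5 much of the nontransgenic spread came from 2 arrays. On arrays 4 and 6 Gabra2 was 5.47 and 3.06, and the 6 others had a mean of 7.58 ± 0.399 (SD). Gria2 on its brightest probe set was 12.77 and 12.40 there, against 13.11 ± 0.074 in the 6 others, and Grik5 was 10.23 and 11.01 against 8.74 ± 0.322.

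The Gria1 probe sets were also unequal between groups. The second minus the first was 0.096 ± 0.00734 (SD, n = 4) in WT bigenic mice, from 0.087 to 0.104. It was −0.58 ± 0.0845 in dNLS monogenic, −0.43 ± 0.383 in dNLS bigenic and −0.33 ± 0.316 in nontransgenic mice. The difference between groups was not tested.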
